A study of Mus musculus with 3 samples.

Results

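Ependymal lineage cells were followed in single-cell libraries of mouse dorsal cortex at postnatal day 2. A cell was counted as a member when Foxj1 and at least 2 of the ciliary genes Fam183b, Lrrc23, Morn5, Rsph1 and Tmem212 had at least 1 UMI each, among cells that had 1000 or more detected genes and less than 10% of their UMIs from mitochondrial genes. A UMI is a molecular tag that marks 1 captured RNA molecule. This gave 2093 members of 36295 kept cells: 43 of 9961 in the control, 1471 of 13199 in the Emx1-Cre mutant and 579 of 13135 in the hGFAP-Cre mutant. Because the members were chosen by these 6 genes, the levels of the 6 and every contrast of members with other cells are given as descriptions.

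Map2k1 and Map2k2 code for the kinases MEK1 and MEK2, which act upstream of ERK. In the control both genes were floxed and no Cre was named, although its genotype field reads WT. The Emx1-Cre and hGFAP-Cre mutants are labelled double conditional knockouts of the same 2 genes. Emx1 drives Cre in progenitors of the dorsal forebrain from early neurogenesis on, and the human GFAP promoter drives it in radial glia later in gestation. All 3 groups received FlashTag, a dye taken up at the ventricular surface, on embryonic day 18, and tdTomato-positive cells were sorted at harvest. The allele behind tdTomato is not named, and neither is any use of the dye in the sort. Each genotype is 1 library, the number of pups behind it is not given, and so no test between genotypes was possible. Intervals below are exact 95% intervals for counting error only, Clopper-Pearson for shares and Poisson for levels.

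Ependymal cells line the brain ventricles and move cerebrospinal fluid with tufts of motile cilia. They arise from radial glia around birth and mature over the first postnatal weeks. It is known that the coiled-coil proteins geminin coiled-coil 1 (Gmnc) and multicilin (Mcidas) turn on Myb, Ccno, Trp73 and Foxj1. The cell then builds many centrioles on deuterosomes, which need Deup1 (listed under its older symbol Ccdc67), and Foxj1 and the RFX factors switch on the genes of the axoneme, the microtubule core of the cilium.

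The libraries held 84016524 to 89917586 UMIs, and the median kept cell had 5306 to 6533. Members were deeper than that: the median member had 15863 UMIs in the control, against 9455 and 12959 in the Emx1-Cre and hGFAP-Cre libraries. A rule that asks for several detected genes favours deep cells, and the shallowest kept cell had 1332, 2644 and 3065 UMIs, respectively. Xist was at 1470.1 CPM (counts per 1000000 UMIs) in the control against 0.155 and 0.823 CPM in the mutants. The Y-linked Ddx3y was at 0 counts in the control, which allows up to 0.0359 CPM, and at 37.5 and 45.9 CPM in the Emx1-Cre and hGFAP-Cre libraries. Sex and genotype thus cannot be told apart against the control, while both mutant libraries show the same pattern. Pairs of libraries shared 34 to 54 kept barcodes and 0 member barcodes.

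Members were far more frequent in both mutants than in the control, and more frequent in the Emx1-Cre than in the hGFAP-Cre library. They made up 11.1% (10.6 to 11.7%) of kept Emx1-Cre cells, 4.41% (4.06 to 4.77%) of hGFAP-Cre cells and 0.432% (0.313 to 0.581%) of control cells. The intervals did not overlap. With every cell thinned to 3000 UMIs, the shares were 0.326% of 9191, 9.89% of 11509 and 2.45% of 13135 cells, with 770, 1690 and 0 shallower cells left out. The Emx1-Cre share was thus 2.53 times the hGFAP-Cre share in full data and 4.03 times at equal depth. A sort of tdTomato-positive cells can set such shares, and its part was not tested.

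Detection of Foxj1 alone differed less between the mutants. It was detected in 12.4% (11.8 to 12.95%) of Emx1-Cre cells, 12.98% (12.4 to 13.6%) of hGFAP-Cre cells and 2.52% (2.22 to 2.85%) of control cells. At 3000 UMIs the shares were 10.9%, 7.82% and 1.19%. Microglia, which should lack Foxj1, had it in 4 of 302 Emx1-Cre cells (1.32%), 14 of 390 hGFAP-Cre cells (3.59%) and 0 of 288 control cells, which allows up to 1.04%. Their median depths were 5250, 7177 and 11122 UMIs. The Foxj1 shares of both mutants were well above this background, and the control share was above its limit by a smaller margin.

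The mutants differed in what accompanied Foxj1. Of the Foxj1-positive cells, 90.02% (88.5 to 91.4%) met the rule in the Emx1-Cre library but 34.0% (31.7 to 36.3%) in the hGFAP-Cre library and 17.1% (12.7 to 22.4%) in the control. At 3000 UMIs these shares were 90.5%, 31.4% and 27.5%. In the Emx1-Cre library 856 Foxj1-positive cells had all 5 partners and 116 had none, whereas in the hGFAP-Cre library 234 had all and 743 had none. The counts of partners had a low point between the ends in each library. Cells just inside the rule, with 2 partners, numbered 6, 58 and 126 in the control, Emx1-Cre and hGFAP-Cre libraries, and those just outside, with 1 partner, 17, 47 and 383.

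**Figure D1:**
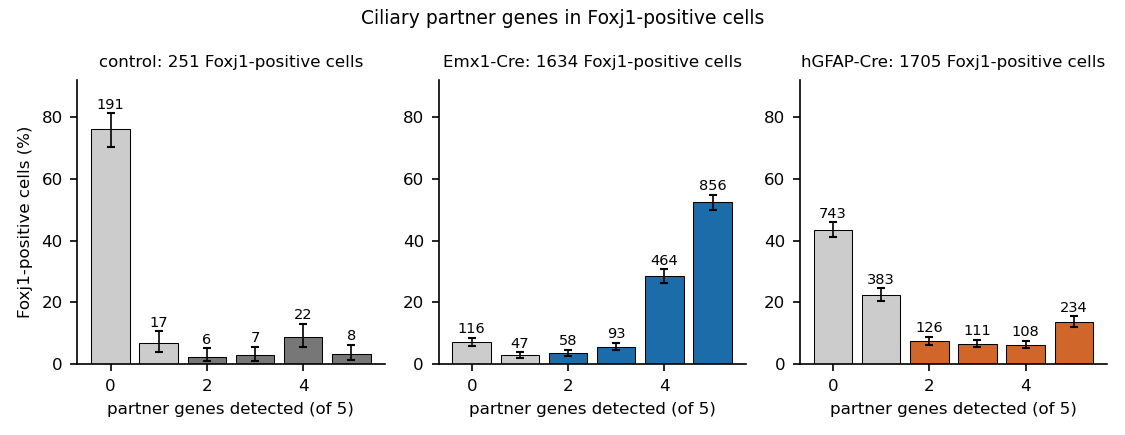
Share of Foxj1-positive cells (y axis, %) by the number of the 5 partner genes detected (x axis) in each library; coloured bars meet the rule, grey bars do not, numbers are cells and error bars are Clopper-Pearson 95% intervals. In the Emx1-Cre library 856 of 1634 cells had all 5 partners, and in the hGFAP-Cre library 743 of 1705 had none.

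The 1126 Foxj1-positive cells outside the rule in the hGFAP-Cre library had a summed Foxj1 level of 207 CPM, against 573 CPM in members. They had high levels of glial genes: the fatty acid binding protein Fabp7 was at 12042 CPM, the metallothionein Mt3 at 3873 CPM, the glutamate transporter Slc1a3 at 764 CPM and the glycolytic enzyme Aldoc at 814 CPM. In Foxj1-negative astroglia of that library, defined below, Slc1a3 and Aldoc were at 831 and 818 CPM. The early factors were low in the Foxj1-positive cells outside the rule but higher than in those astroglia. Mcidas was at 3.65 against 0.0694 CPM, Ccno at 10.3 against 0.555 CPM and Myb at 32.9 against 4.17 CPM. The small heat shock protein Cryab stood at 526 CPM in the Foxj1-positive cells outside the rule, against 421 CPM in members. In the Emx1-Cre library the 163 Foxj1-positive cells outside the rule had Foxj1 at 179 CPM and Cryab at 204 CPM. Against astroglia of that library they had Mcidas at 0.792 and 0.0931 CPM, Ccno at 16.6 and 0.419 CPM and Myb at 33.3 and 3.59 CPM. In the control, Ccno was at 0.392 and 0.381 CPM and Myb at 3.92 and 4.19 CPM. Foxj1 itself divided these cells from astroglia, so the differences are description only.

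The ciliary programme was then measured without the 6 genes of the rule, as ciliary load: the percent of a cell's UMIs in 136 other genes of the axoneme. Median load was 3.78% in Emx1-Cre members (quartiles 2.902 and 4.55%), 2.73% in hGFAP-Cre members (1.66 and 3.67%) and 2.70% in control members (1.29 and 3.22%). Cells without Foxj1 had a median of 0.126 to 0.147% in the 3 libraries. The load of members therefore lay far above other cells. Because the same cells were chosen by linked genes, this describes the members and is not separate support for the label. Foxj1-positive cells outside the rule had a median of 0.428% in the hGFAP-Cre mutant, 0.159% in the Emx1-Cre mutant and 0.168% in the control. Other astroglia, defined as Foxj1-negative cells with at least 3 of Slc1a3, Aldoc, Sox9, Fabp7 and Ptprz1, had 0.252% in the hGFAP-Cre library against 0.118% and 0.134%.

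**Figure D2:**
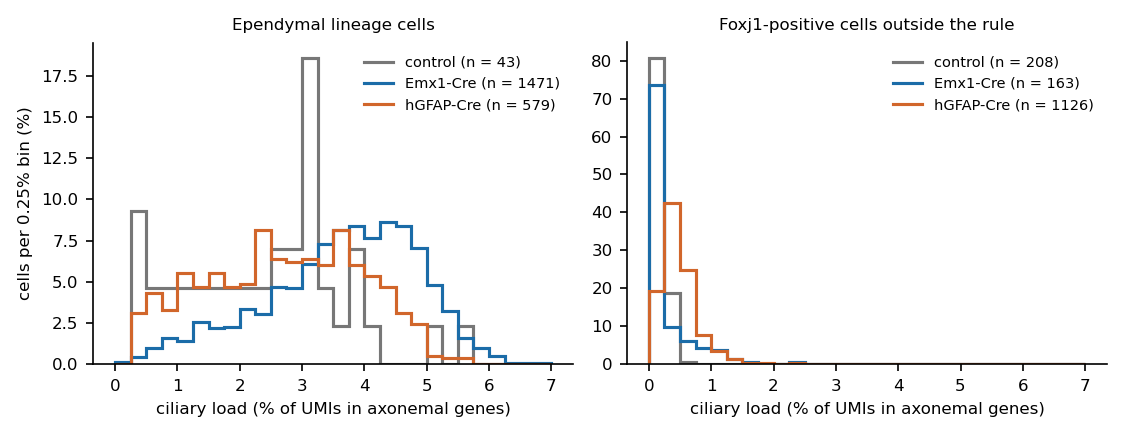
Distribution of ciliary load (x axis, percent of a cell's UMIs in 136 axonemal genes without the rule's 6; y axis, percent of cells per 0.25% bin) in ependymal lineage cells (left) and in Foxj1-positive cells outside the rule (right), 1 line per library. The Emx1-Cre members (median 3.78%) lie to the right of the hGFAP-Cre members (2.73%), and on the right the hGFAP-Cre cells (0.428%) lie above the other 2 libraries.

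Members of both mutants were pooled and cut at loads of 2.91% and 4.07% into 3 load classes of equal size, low, middle and high. The low class held 25.2% (23.0 to 27.5%) of Emx1-Cre members and 54.1% (49.9 to 58.2%) of hGFAP-Cre members, and the high load class 40.7% (38.1 to 43.2%) and 14.7% (11.9 to 17.8%). Of the 43 control members, 25 were in the low load class and 3 in the high load class. These classes are ranges along a continuum, not cell types: 149 Emx1-Cre and 55 hGFAP-Cre members lay within 0.1 percentage points of a cut. Median depth from the low to the high load class was 9328, 9690 and 9351 UMIs in the Emx1-Cre and 12144, 14170 and 12916 UMIs in the hGFAP-Cre library.

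Markers of other cell types were checked next. The choroid plexus epithelium also carries cilia, but its main secretory product Ttr was at 0.260 CPM in Emx1-Cre members, 0.239 CPM in hGFAP-Cre members and 0 in the control. At least 3 of the 12 choroid plexus markers were detected in 243 Emx1-Cre and 82 hGFAP-Cre members, through genes such as Calml4 (156 and 74.7 CPM), Folr1 (42.7 and 35.3 CPM) and Enpp2 (34.8 and 17.7 CPM). The summed level of that list was 258, 159 and 92.7 CPM in the Emx1-Cre, hGFAP-Cre and control members, against 11.9 to 14.4 CPM in other cells. Calml4 is also counted among the axonemal genes. Per cell the list took a median of 0, 0.0112 and 0.0357% of UMIs from the low to the high load class of the Emx1-Cre members. In the hGFAP-Cre members it took 0.00427, 0.0144 and 0.0220%. Because Calml4 is part of the load, this rise is in part fixed by the cut, and the list was not measured without Calml4. The part of the choroid plexus markers in the results on load was not tested.

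Cajal-Retzius neurons, which also use Trp73, gave at least 3 of 12 markers in 74 Emx1-Cre, 11 hGFAP-Cre and 0 control members. Reln, which defines them, was at 44.0, 9.31 and 2.77 CPM, and the whole list at 231, 116 and 99.7 CPM against 1396, 564 and 369 CPM in other cells. Excitatory lineage markers reached 3 of 10 in 135, 51 and 6 members, with summed levels of 119, 90.7 and 177 CPM against 686, 743 and 879 CPM in other cells. Interneuron lineage markers did so in 12, 28 and 2 members, and microglial markers in 3, 3 and 0. Scrublet marked 16.0% of Emx1-Cre, 16.8% of hGFAP-Cre and 4.65% of control members as doublets, more than among all kept cells (7.64, 8.71 and 4.44%). Without those cells the shares of members were 10.1, 4.02 and 0.431%, and without members that had 3 markers of another type they were 7.90, 3.21 and 0.301%. The Emx1-Cre share stayed 2.52 and 2.46 times the hGFAP-Cre share.

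The genes at the top of the programme lay within 1.5-fold of each other in members of the 2 mutants. Multicilin (Mcidas), which starts the programme, was at 95.5 CPM in the control, 56.5 CPM (52.8 to 60.4) in the Emx1-Cre and 47.3 CPM (42.7 to 52.2) in the hGFAP-Cre members. Ccno, a cyclin-like protein needed for many centrioles, was at 220.1, 99.5 and 92.9 CPM. Myb, a transcription factor of dividing progenitors that is used again here, was at 417, 286 and 281 CPM. Ccno and Mcidas lie side by side (GRCm38, GENCODE vM21: chr13:112987802-112990777 and chr13:112993845-113000394, both plus strand). The control members had the highest value of each of these 3 genes, and the mutant values of Ccno and Myb had overlapping intervals.

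The other regulators followed the same order in part. Foxn4, a forkhead factor of the same cascade, was at 81.7, 33.8 and 41.5 CPM. Trp73, the p53 relative required for multiciliated cells, was at 63.7, 61.6 and 56.2 CPM, with Rfx2 at 55.4, 58.1 and 59.4 CPM and Rfx3, both factors that bind promoters of ciliary genes, at 95.5, 91.4 and 82.5 CPM. Gmnc, the most upstream factor, was low in all 3 libraries, at 9.69, 8.06 and 6.45 CPM. For the contrast of the mutants, counts were summed over the members of a library and compared as the log2 ratio of hGFAP-Cre over Emx1-Cre levels, each with 5 CPM added. None of 13 measured regulators other than Foxj1 differed by at least 1.5-fold, when 6.27% of 9199 genes were at least 1.5-fold higher and 4.25% lower in the hGFAP-Cre members. Their median log2 ratio was -0.01, beside 0.12 over all genes compared.

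Centriole genes likewise lay within 1.5-fold. None of 15 passed it in either direction, beside 6.27% of all genes higher and 4.25% lower, and their median log2 ratio was -0.05. In lists of 13 regulators and 15 centriole genes, a count of 0 lies near these shares. Ccdc67 (Deup1), the core of the deuterosome, was at 655 CPM in the control, 399 CPM (389 to 409) in the Emx1-Cre and 371 CPM (358 to 385) in the hGFAP-Cre members. Plk4, the kinase that starts a new centriole, was at 242, 127 and 108 CPM, and Cep152, which recruits it, at 58.1, 22.0 and 22.7 CPM. As with Mcidas, Ccno and Myb, the 43 control members had the highest levels of Ccdc67, Plk4 and Cep152.

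Within each mutant library Mcidas, Ccno, Ccdc67 and Plk4 were lowest in the high load class. From the low to the high load class, Mcidas was at 74.8, 83.7 and 20.7 CPM in the Emx1-Cre and at 61.4, 41.5 and 7.004 CPM in the hGFAP-Cre members. Ccno was at 124, 148 and 40.4 CPM in the former and at 104, 97.8 and 36.8 CPM in the latter. Ccdc67 was at 358, 526 and 312 CPM and at 343, 440.5 and 311 CPM, highest in the middle load class of both libraries. With 5 CPM added, Plk4 was 2.46-fold and 3.59-fold higher in the low than in the high load class, and Mcidas 3.11-fold and 5.53-fold. Myb was also lowest there, at 321, 363 and 195 CPM in the Emx1-Cre and at 276, 311 and 228 CPM in the hGFAP-Cre members. So was Cep152, at 30.1, 32.9 and 7.06 CPM and at 26.1, 23.4 and 7.88 CPM. Gmnc, Foxn4, Trp73 and Rfx2 did not share this course across both libraries. Gmnc was at 6.69, 7.40 and 9.52 CPM in the Emx1-Cre and at 8.61, 5.32 and 0.876 CPM (1 count) in the hGFAP-Cre members. Foxn4 was at 29.3, 48.7 and 23.5 CPM and at 33.5, 52.8 and 44.7 CPM, highest in the middle load class of both. Trp73 was at 79.7, 60.5 and 51.1 CPM in the former but at 56.6, 54.6 and 58.7 CPM in the latter, and Rfx2 was highest in the high load class of both, at 70.5 and 71.8 CPM. Foxj1 was also lowest in the high load class of both libraries but varied less than Mcidas. It was at 649, 715 and 493 CPM in the Emx1-Cre and 639, 527 and 433 CPM in the hGFAP-Cre members.

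Genes outside the load that had the opposite course included Hdc and Ccna1. Hdc, histidine decarboxylase, was 4.70-fold higher in the high than in the low load class of the Emx1-Cre members and 6.83-fold higher in the hGFAP-Cre members. Ccna1, the cyclin of the male germ line and of multiciliated cells, was at 190, 556 and 905 CPM and at 165, 750 and 1122 CPM. Hdc reached 455 and 484 CPM in the high load class. In both mutants the high load class thus held the highest levels of Hdc and Ccna1.

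**Figure D3:**
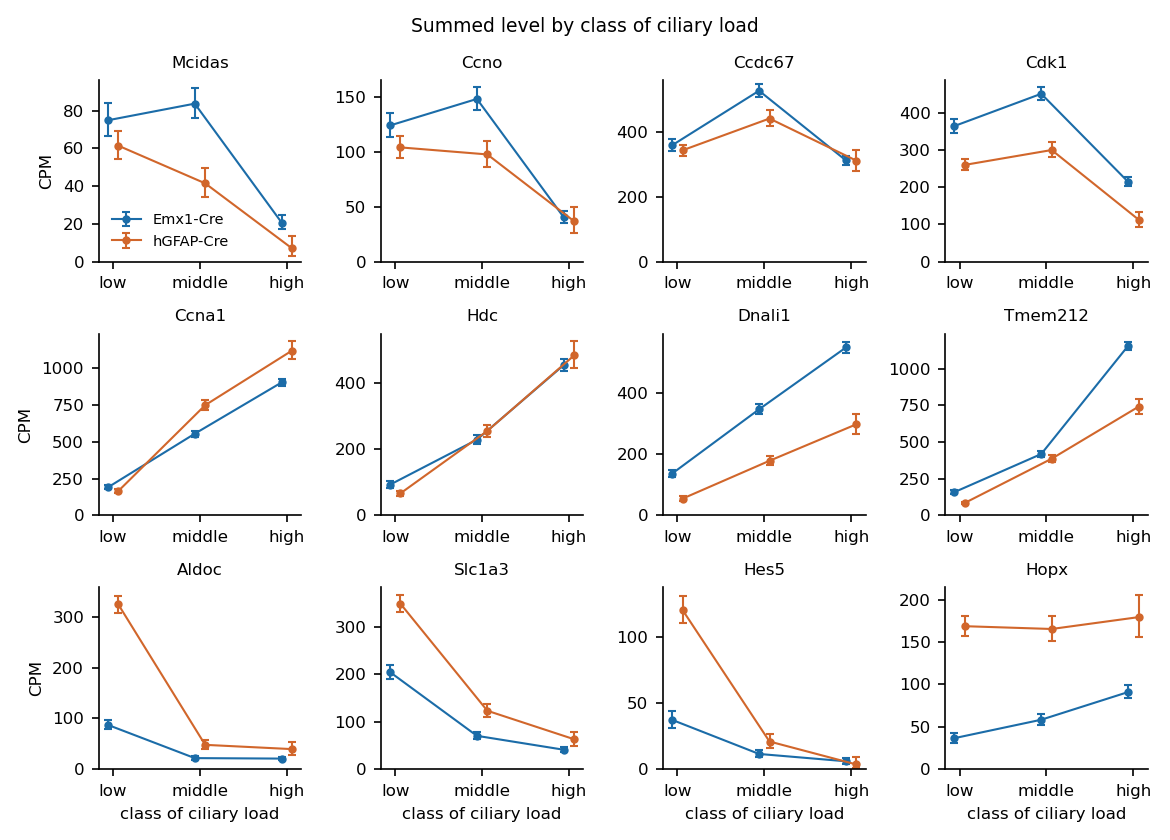
Summed level (y axis, CPM, linear from 0) of 12 genes in the low, middle and high load classes (x axis), for Emx1-Cre (blue) and hGFAP-Cre (orange) members; error bars are exact Poisson 95% intervals. Mcidas and Ccno are lowest and Ccna1 and Hdc highest in the high load class of both libraries, Aldoc, Slc1a3 and Hes5 are highest in the low load class, and Dnali1 is itself part of the load that set the load classes.

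Structural genes of the axoneme were lower in the hGFAP-Cre than in the Emx1-Cre members taken as a whole. Of 35 measured genes of dynein arms and their assembly, 6 were at least 1.5-fold lower and 0 higher, with a median log2 ratio of -0.39, and 33 of 35 lay below 0, beside 4.25% of all genes lower. Of 56 genes of the doublet microtubules and the ciliary tip, 10 were lower and 0 higher (median -0.33), and of 19 radial spoke and central pair genes 3 were lower and 0 higher (median -0.29). The 24 genes of intraflagellar transport, the traffic system shared by motile and primary cilia, had 0 in either direction and a median of -0.07. With the all-gene median of 0.12 subtracted, 13, 16, 6 and 1 genes of these 4 lists were at least 1.5-fold lower, beside 6.28% of all genes, and 0 were higher, beside 3.58%.

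The dynein light intermediate chain Dnali1 had the largest difference among them. Dnali1 (chr4:125055338-125065703, minus strand) was at 216 CPM in the control, 372 CPM (363 to 382) in the Emx1-Cre and 129 CPM (122 to 137) in the hGFAP-Cre members, a log2 ratio of -1.49. The inner arm heavy chain Dnah12 was at 104, 169 and 81.5 CPM (-1.005), and the outer arm docking protein Armc4 at 8.31, 24.8 and 11.6 CPM (-0.85). The hGFAP-Cre value was the lowest of the 3 libraries for Dnali1 and Dnah12 but not for Armc4.

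Among radial spoke and central pair genes, Dydc2 was at 20.8, 69.6 and 28.6 CPM (-1.15) and Dnajb13, a radial spoke protein, at 99.7, 126 and 70.4 CPM (-0.79). Of the doublet and tip genes, Mns1, a protein inside the doublets, was at 536, 498 and 244 CPM (-1.02), Calml4 at 24.9, 156 and 74.7 CPM (-1.02) and Meig1 at 1662.4, 2938 and 1599 CPM (-0.88). In other astroglia of both mutants Dnali1, Dydc2 and Dnah12 lay under the added 5 CPM, too low for a ratio to be read. Mns1 was at 20.5 and 36.6 CPM in Emx1-Cre and hGFAP-Cre astroglia (0.70) and Meig1 at 24.0 and 30.9 CPM (0.31). In astroglia the intraflagellar transport list had a median of 0.60, against -0.07 in members.

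The shift in axonemal genes went with the larger low load class of the hGFAP-Cre members. Compared within load classes, the median log2 ratio of the dynein list was -0.07 in the low, 0.04 in the middle and -0.09 in the high load class, and that of the doublet list -0.12, 0.11 and 0.06. Radial spoke genes had -0.20, 0.09 and -0.05. The load classes were cut on these same genes, so near equality within them is in part fixed by the cut. Within load classes, 5, 1 and 1 doublet and tip genes were at least 1.5-fold lower, beside 5.54, 4.01 and 5.93% of all genes, and 0, 4 and 2 higher, beside 7.05, 7.31 and 7.66%. Dnali1 remained apart: it was at 136, 346 and 547 CPM in the Emx1-Cre load classes and at 54.6, 178 and 297 CPM in the hGFAP-Cre load classes.

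The 6 genes of the rule showed the same direction to varying degrees, which is description only. Foxj1 (chr11:116330704-116335399, minus strand) was at 1091 CPM in the control, 610.3 CPM in the Emx1-Cre and 573 CPM in the hGFAP-Cre members. Rsph1, a radial spoke head protein, was at 1174, 2483 and 1592 CPM, Lrrc23, a radial spoke protein, at 464, 726 and 509 CPM and Morn5 at 253, 583 and 292 CPM. Tmem212, a membrane protein of ciliated cells, was at 60.9, 645 and 276 CPM. Fam183b, a protein of the axoneme, was furthest apart at 713, 939.8 and 196 CPM, and lower at equal load too, at 74.3, 257 and 517 CPM in the hGFAP-Cre load classes against 413, 829 and 1374 CPM. Leaving Fam183b out of the rule gave shares of members of 10.8, 4.25 and 0.381% in the Emx1-Cre, hGFAP-Cre and control libraries.

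**Figure D4:**
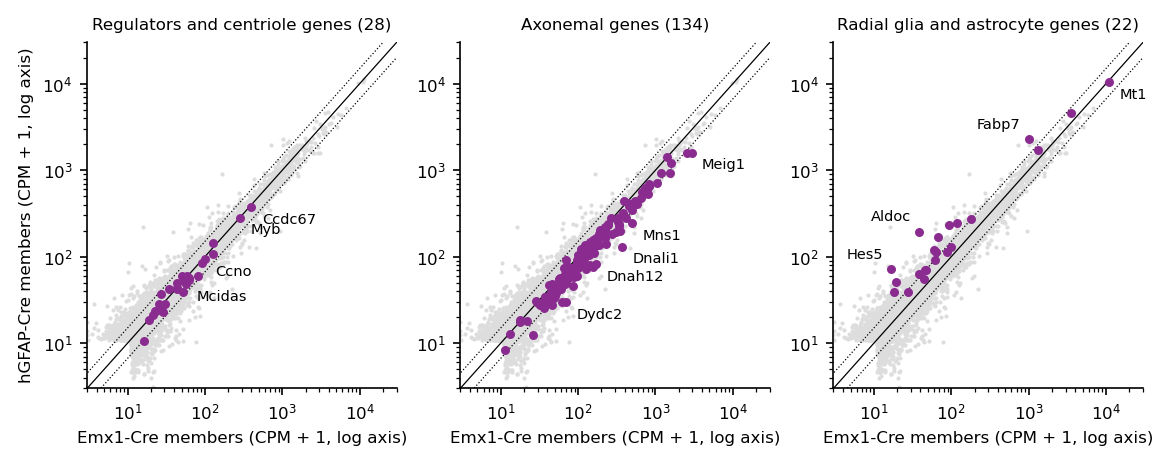
Summed level in hGFAP-Cre members (y axis) against Emx1-Cre members (x axis), as CPM + 1 on log axes, for 3 groups of genes (purple) over all 9199 compared genes (grey); the solid line is equality and the dotted lines are 1.5-fold without an added constant. Regulators and centriole genes follow the line, most axonemal genes lie somewhat below it, and radial glia and astrocyte genes such as Aldoc, Hes5 and Fabp7 lie above it.

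Sequence upstream of these genes was examined because RFX factors, which stand beside Foxj1 at the head of the axonemal genes, bind the X-box, a motif made of 2 mirrored arms. RefSeq promoters (250 bases before to 50 after the start, GRCm38.p6) matched 116 of 142 axonemal and rule genes. The paired motif was written as the arm GTTNCC, any 2 bases, then its mirror image GGNAAC, which reads the same on both strands. It was in 3 of the 116 promoters (2.59%) and in 120 of all 27025 (0.444%). The single arm GTTGCC on either strand, which also lies inside some of the pairs, was in 52 of the 116 (44.8%) against 12.7% of all promoters. This arm was added after the data were seen. The forkhead motifs TGTTTAC and TGTTTGT, on either strand, were in 6.03% and 5.17% of the axonemal promoters against 3.55% and 6.62% of all promoters. These are matches of letters, not measured binding.

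The pieces below show the paired X-box in capitals with its flanks upstream of the start, 5′ to 3′ on the gene's strand, for the 3 promoters that held it and for a further listed start of Pifo. Iqca lies on the minus strand (chr1:90153483-90153576), Ttc26 on the plus strand (chr6:38381451-38381523), Ccdc151 on the minus strand (chr9:22002635-22002708) and Pifo on the minus strand (chr3:106001498-106001557).
Iqca: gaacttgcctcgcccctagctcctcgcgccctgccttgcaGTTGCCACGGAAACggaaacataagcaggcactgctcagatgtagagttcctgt
Ttc26: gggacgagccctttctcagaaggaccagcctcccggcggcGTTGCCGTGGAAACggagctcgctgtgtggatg
Ccdc151: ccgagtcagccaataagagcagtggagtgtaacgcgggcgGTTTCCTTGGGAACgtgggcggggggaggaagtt
Pifo: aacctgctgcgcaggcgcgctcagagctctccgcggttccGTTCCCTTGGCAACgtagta

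The 4 genes with a paired X-box differed widely in level. In the control, Emx1-Cre and hGFAP-Cre members, Iqca was at 36.0, 87.6 and 57.4 CPM, Ttc26, a subunit of intraflagellar transport, at 30.5, 29.5 and 28.3 CPM and Ccdc151, a dynein arm docking factor, at 149, 94.7 and 84.6 CPM. Pifo, a protein of the ciliary base, was at 608, 819 and 697 CPM and also at 125 CPM in the Foxj1-positive hGFAP-Cre cells outside the rule. Of the 4, only Iqca lay at or beyond a log2 ratio of -0.57, just short of 1.5-fold.

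Genes of radial glia and astrocytes went the other way. Of 22 measured, 13 were at least 1.5-fold higher in the hGFAP-Cre than in the Emx1-Cre members and 0 lower, with a median log2 ratio of 0.64 beside 0.12 over all genes and 6.27% of all genes higher. With the all-gene median subtracted, 10 were higher and 0 lower. Aldoc was at 229.8 CPM in the control, 37.8 CPM (34.8 to 41.0) in the Emx1-Cre and 193 CPM (183 to 202) in the hGFAP-Cre members (log2 ratio 2.21). Hes5, a NOTCH target of radial glia, was at 54.0, 15.8 and 71.0 CPM (1.87), and Slc1a3 at 307, 92.7 and 234 CPM (1.29). The Emx1-Cre members were the low group for each of these 3 genes, with the control near or above the hGFAP-Cre value for Aldoc and Slc1a3.

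Other members of the list followed. The homeodomain protein Hopx was at 72.0, 65.7 and 169 CPM (1.30), the intermediate filament nestin (Nes) at 80.3, 18.4 and 49.8 CPM (1.23) and Fabp7 at 3235, 1013 and 2298 CPM (1.18). Ptprz1, a receptor phosphatase, was at 479, 117 and 245 CPM (1.03). The metallothionein Mt1 was the most abundant gene of the list and the exception, at 7122, 11005 and 10382 CPM (-0.08). In other astroglia the log2 ratios of Aldoc and Hopx were 0.87 and 1.18, and those of Hes5, Slc1a3 and Nes were -0.33, -0.44 and -0.21. The list's median there was 0.18.

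Of the list genes named above, Aldoc, Hes5, Slc1a3, Nes, Fabp7 and Ptprz1 were highest in the low load class of both mutants. How many genes of the whole list had this course was not counted. Aldoc was at 325, 47.8 and 39.4 CPM from the low to the high load class of the hGFAP-Cre members and at 87.2, 21.7 and 20.7 CPM in the Emx1-Cre members. Hes5 was at 121, 20.9 and 3.502 CPM against 37.3, 11.5 and 5.91 CPM, and Slc1a3 at 350, 123 and 63.0 CPM against 205, 70.3 and 40.9 CPM. Hopx, by contrast, was at 169, 165 and 179 CPM against 36.5, 58.3 and 91.0 CPM, so that it stood higher in each hGFAP-Cre load class. Within the low load class 15 of 23 list genes were at least 1.5-fold higher in the hGFAP-Cre members and 0 lower. The counts were 6 and 0 of 22 in the middle and 3 and 3 of 19 in the high load class. Over all genes 7.05, 7.31 and 7.66% were higher and 5.54, 4.01 and 5.93% lower in the 3 load classes. Per cell, the list took a median of 1.16, 1.60 and 2.05% of UMIs in the Emx1-Cre load classes and 1.82, 1.95 and 2.19% in the hGFAP-Cre load classes, an order opposite to that of Aldoc, Hes5 and Slc1a3, which are minor parts of a sum led by Mt1.

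NOTCH and BMP genes, which act in the glial lineage, moved partly with this group. Of 11 NOTCH pathway genes 4 were at least 1.5-fold higher and 0 lower (median 0.39), beside 6.27% and 4.25% of all genes. In the high load class 1 of 11 was higher and 1 lower, with a median of 0.02, beside 7.66% and 5.93% of all genes. The receptor Notch1 was at 59.5, 34.1 and 73.3 CPM (1.0003) and Notch2 at 91.4, 52.0 and 95.8 CPM (0.82), with the Emx1-Cre members lowest for both. The ligand Jag1, at 19.4, 29.5 and 19.6 CPM (-0.49), went the other way without reaching 1.5-fold. Of 9 BMP and ID genes 5 were higher and 1 lower (median 0.64). In the high load class 1 of 7 was higher and 2 lower (median 0.02), beside the same 7.66% and 5.93% of all genes.

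The ID genes encode inhibitors of bHLH factors and respond to BMP. Id3 was at 72.0, 122 and 318 CPM (1.35), Id1 at 26.3, 24.7 and 55.6 CPM (1.03), Id4 at 269, 120 and 221 CPM (0.85) and the BMP antagonist Nog at 56.8, 24.7 and 41.3 CPM (0.64). Id2, at 208, 215 and 137 CPM (-0.63), was the 1 gene lower. In other astroglia Id3 and Id1 had log2 ratios of -1.05 and -0.83, opposite in sign to members. In the high load class Id3 was at 18.6 CPM in the Emx1-Cre and 3.502 CPM in the hGFAP-Cre members, a reversed order on few UMIs (4 in the hGFAP-Cre load class).

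Cell cycle genes were set against all other kept cells, as a description, with Cdk1, Top2a and Mki67 named after their values were seen. The mitotic kinase Cdk1 was at 296 CPM in the control, 335 CPM in the Emx1-Cre and 253 CPM in the hGFAP-Cre members, against 98.8, 125 and 103 CPM in other cells. Top2a, a topoisomerase of G2 and mitosis, was at 371, 297 and 263 CPM against 164, 85.4 and 86.8 CPM. The proliferation marker Mki67 went the opposite way, at 19.4, 12.5 and 9.31 CPM against 88.0, 38.9 and 45.5 CPM. Cdk1 and Top2a were thus above and Mki67 below other cells in all 3 libraries, and at 3000 UMIs Mki67 was detected in 2.33, 2.67 and 1.55% of members.

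By list, G2/M genes lay on both sides and S phase genes more often on the lower side. Of 20 G2/M genes 4 were at least 1.5-fold higher and 5 lower in Emx1-Cre members than in other cells, and 4 higher and 6 lower in hGFAP-Cre members. Of 20 S phase genes 2 were higher and 12 lower, and 1 higher and 9 lower. These shares stand beside 29.2% of all genes higher and 27.2% lower in the Emx1-Cre library, and 25.6 and 20.6% in the hGFAP-Cre library, and no more is read from them since the rule chose the members. The replicative cyclin Ccna2 was at 11.96 and 7.28 CPM in the mutants against 39.6 and 41.3 CPM in other cells, while Ccna1 was at 601 and 493 CPM against 4.75 and 4.27 CPM. The G1 cyclin Ccnd2 was at 63.2 and 81.8 CPM against 371 and 245 CPM. The DNA clamp Pcna was at 25.7 and 46.4 CPM against 90.5 and 104 CPM.

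**Figure D5:**
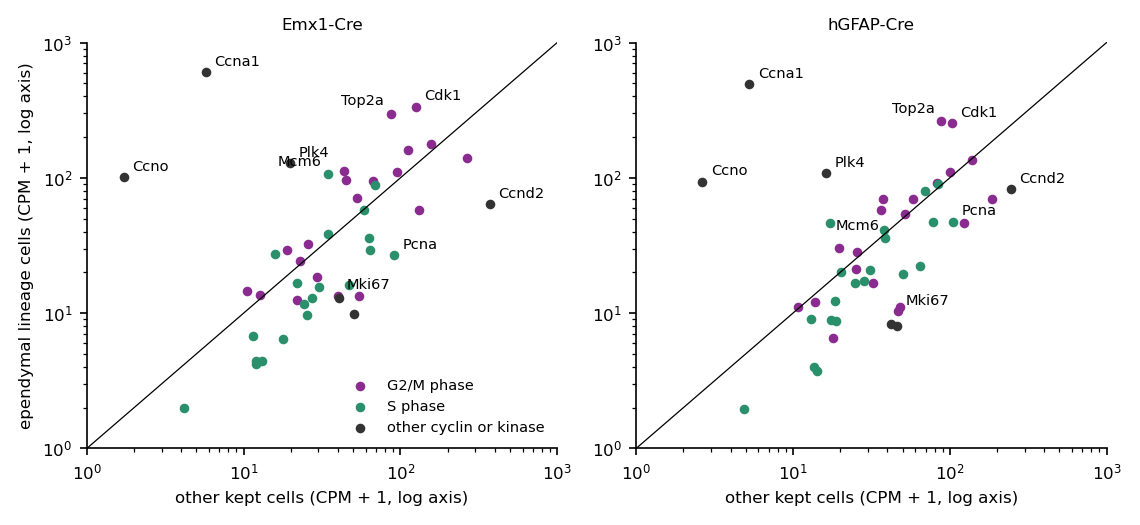
Summed level in ependymal lineage cells (y axis) against all other kept cells (x axis), as CPM + 1 on log axes, for 20 G2/M genes, 20 S phase genes and 6 further cyclins or kinases in the Emx1-Cre (left) and hGFAP-Cre (right) libraries; the line is equality. Ccna1, Ccno, Plk4, Cdk1 and Top2a lie above the line, and Mki67, Ccnd2 and Pcna below it, in both libraries.

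Between the mutants, 0 of 20 G2/M genes were at least 1.5-fold higher and 4 lower in hGFAP-Cre members, beside 6.27% and 4.25% of all genes. The median log2 ratio of the list was -0.30. Ube2c, an enzyme of the mitotic exit, was at 38.8, 139 and 69.2 CPM (-0.96), Ccnb2 at 54.0, 95.1 and 56.8 CPM (-0.70) and Ccnb1 at 85.8, 112 and 68.4 CPM (-0.67). The same genes had log2 ratios of -1.01, -0.82 and -0.76 in other astroglia, and the list's median there was -0.51. Mcm6, a helicase subunit of S phase, stood apart: it was at 6.92 CPM in the control, 106 CPM (101 to 111) in the Emx1-Cre and 34.9 CPM (31.0 to 39.1) in the hGFAP-Cre members (-1.48), but at 53.7, 51.4 and 48.9 CPM in astroglia. From the low to the high load class, 11 of 20, 0 of 18 and 7 of 15 measured G2/M genes were at least 1.5-fold lower in hGFAP-Cre members. These counts stand beside 5.54, 4.01 and 5.93% of all genes. In each load class 0 were higher, beside 7.05, 7.31 and 7.66%, and the medians were -0.69, -0.34 and -0.55. Cdk1 was at 364, 451 and 214 CPM from the low to the high load class in the Emx1-Cre and at 260, 299.8 and 113 CPM in the hGFAP-Cre members.

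The targeted genes were measured in each library. Map2k1 was at 20.8 CPM in the control, 17.7 CPM in the Emx1-Cre and 17.8 CPM in the hGFAP-Cre members, and Map2k2 at 221, 271 and 256 CPM. Reads of these libraries come from the 3′ ends of transcripts, and whether the deleted part includes them is not given in the sources used here, so these levels do not check the labels. Of the transcripts that respond to ERK, Egr1, Dusp6 and Spry2 were lower in members of both mutants than in the control. Dusp6 and Spry2 were named after their values were seen, and Phlda1, given below, was not lower in the hGFAP-Cre members. Egr1 was at 331 CPM (290.2 to 376) in the control, 17.4 CPM (15.3 to 19.6) in the Emx1-Cre and 4.18 CPM (2.91 to 5.81) in the hGFAP-Cre members. Dusp6 was at 33.2, 3.25 and 3.46 CPM and Spry2 at 45.7, 12.5 and 19.7 CPM. In other kept cells Egr1 was at 343, 116 and 50.7 CPM, so its lower level in the mutants was not particular to members. Summed over the 22 genes of the ERK list, members had 1442, 285 and 577 CPM against 1757, 1077 and 1045 CPM in other cells.

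Of the 22 ERK response genes 7 reached 10 CPM in a mutant, and 4 of these were at least 1.5-fold higher and 1 lower in hGFAP-Cre than in Emx1-Cre members (median 0.72), beside 6.27% and 4.25% of all genes. Fos was at 756, 145 and 393 CPM (1.41), Phlda1 at 12.5, 9.36 and 18.98 CPM (0.74) and Spred1, an inhibitor of the cascade, at 48.4, 15.8 and 29.2 CPM (0.72), with Egr1 as the lower gene (-1.28). In astroglia Fos and Egr1 had log2 ratios of -0.26 and -2.57. Fos is also induced by dissociation of tissue, and of 13 immediate early genes 5 were higher and 2 lower in hGFAP-Cre members. Jun was at 318, 158 and 264 CPM and Ier2 at 80.3, 24.1 and 10.6 CPM. The part of dissociation in these values was not tested.

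Targets of p53 and of interferon were read beside 6.27% of all genes higher and 4.25% lower. Of 11 p53 targets 5 were at least 1.5-fold higher and 0 lower in hGFAP-Cre members (median 0.54), and 4 and 0 with the all-gene median subtracted. Phlda3, a repressor of AKT, was at 31.8, 28.3 and 67.3 CPM (1.12), Ccng1 at 20.8, 16.4 and 38.1 CPM (1.01) and the cell cycle inhibitor Cdkn1a at 281, 282 and 450.5 CPM (0.67). In other astroglia Cdkn1a was at 14.6, 30.9 and 342 CPM, a log2 ratio of 3.27, so members of all libraries carried it while astroglia carried it chiefly in the hGFAP-Cre library. The p53 list had a median of 0.78 in astroglia. Of 8 interferon response genes 6 were higher and 0 lower in members (median 0.72, and 0.07 in astroglia), and 4 and 0 with that median subtracted.

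Bst2, a membrane protein that holds back virus release, led the interferon genes. Bst2 was at 6.92 CPM (2.25 to 16.2) in the control, 60.1 CPM (56.3 to 64.1) in the Emx1-Cre and 208 CPM (199 to 218) in the hGFAP-Cre members (1.71), and at 2.95, 29.7 and 27.4 CPM in astroglia. Across the load classes Bst2 was at 28.6, 68.9 and 72.4 CPM in the Emx1-Cre and at 114, 270.0 and 422 CPM in the hGFAP-Cre members, highest at high load in both. The class I molecules H2-D1 and H2-K1 were at 13.8, 17.8 and 46.0 CPM (1.16) and 17.99, 25.3 and 48.3 CPM (0.82). The interferon list had medians of 0.78, 0.59 and 0.80 in the low, middle and high load classes.

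Genes of the ependymal surface, of cilia orientation and of SHH signalling were compared in the same way, beside 6.27% of all genes higher and 4.25% lower. Of 22 genes of the mature surface 2 were at least 1.5-fold higher and 3 lower (median -0.0020). The intermediate filament vimentin (Vim) was at 2438, 1228 and 2172 CPM (0.82) and the surface protein Cd24a at 639, 869 and 655 CPM (-0.41). The late marker S100b was at 0 counts in the control, which allows up to 4.15 CPM, and at 17.3 and 8.36 CPM (-0.74), and the water channel Aqp4 at 23.5, 13.2 and 22.3 CPM. Both late markers were at low levels in every library. Of 15 planar polarity genes 2 were higher and 0 lower (median 0.24), a count near the share over all genes: the cadherin Cdh2 at 180, 84.6 and 142 CPM (0.71) and Numbl at 16.6, 8.91 and 16.8 CPM (0.65). Of 6 SHH pathway genes 2 were higher and 0 lower (median 0.50, and 0.93 in astroglia): the coreceptor Gas1 at 84.4, 30.2 and 56.6 CPM (0.81) and Gli3 at 107, 41.7 and 71.4 CPM (0.71).

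Members of the heat shock and stress list differed among themselves when set against other cells, which is description only. The chaperone Hsp90aa1 was at 6978, 5052 and 3150 CPM (log2 ratio -0.68) in the control, Emx1-Cre and hGFAP-Cre members against 1025, 831 and 736 CPM in other cells. Its partner Hsph1 was at 256, 230 and 159 CPM against 65.0, 40.3 and 35.1 CPM. The log2 ratios of members over other cells were smaller for Hspa8, at 0.68, 0.86 and 0.43, and uneven for Hspb1, at 0.03, 1.44 and 0.50. Between the mutants, of 7 genes of heat shock and stress 1 was at least 1.5-fold higher and 2 lower, beside 6.27% and 4.25% of all genes. The lower genes were Hsp90aa1 and Hspb1 (5.54, 21.1 and 7.04 CPM, -1.11). The higher gene was Cryab at 133, 276 and 421 CPM (0.60), but its log2 ratio was -0.52 and -0.18 in the middle and high load classes. Cryab had a log2 ratio of 1.70 in other astroglia.

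Outside the lists the gene furthest apart was Prm1, which encodes a sperm protamine. In members Prm1 was at 0 counts in the control, which allows up to 4.15 CPM, at 1 count in the Emx1-Cre and at 478 CPM (463 to 493) in the hGFAP-Cre library. It had a UMI in 67.9% of hGFAP-Cre members, 95.3% of Foxj1-positive cells outside the rule, 81.9% of other astroglia and 12.1% of microglia. At 3000 UMIs these shares were 48.7, 90.1, 75.6 and 8.72%. From the low to the high load class of members Prm1 was at 781, 163 and 82.3 CPM. The 3′ end of this gene is in wide use as a polyadenylation tail of transgenes, and whether a construct of this line carries it is not given in the sources used here.

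Scrn1 was at 126, 9.36 and 82.5 CPM (2.61) and the imprinted zinc finger gene Plagl1 at 89.97, 9.10 and 65.1 CPM (2.31), with log2 ratios of 1.40 and 2.76 in other astroglia. Pea15a, an adaptor that binds ERK, was at 320, 62.7 and 244 CPM (1.88) and Ddah1 at 496, 105 and 373 CPM (1.78), with 0.27 and 1.21 in astroglia. For these 4 genes the Emx1-Cre members were the low group and the control lay above both mutants, although its interval overlapped the hGFAP-Cre one for Plagl1. The ribosomal gene Rpl29, of which near-identical copies exist and which was named after its value was seen because ribosomal genes are outside the naming rule, was at 400.0, 166 and 894 CPM (2.39), with 2.00 in astroglia. Fgfbp3, Ndrg2 and Mfge8, the rest of the named genes that were higher, had log2 ratios of 2.07, 1.59 and 1.56.

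Lower in the hGFAP-Cre members were Hist1h2al, at 63.7, 156 and 0.239 CPM (-4.94), and Tmigd1, at 1.38, 76.3 and 9.43 CPM (-2.49). Hist1h2al is one of many near-identical histone genes, between which reads can be split. In all other kept cells it was at 24.0, 10.7 and 0.0123 CPM, so its near absence held for the whole hGFAP-Cre library and not for members alone. Caly was at 29.1, 221 and 41.1 CPM (-2.29), Lect1 at 5.54, 51.1 and 9.67 CPM (-1.94) and Meox1 at 12.5, 84.8 and 19.7 CPM (-1.86). Htatip2, Necab2 and Tfeb, a regulator of lysosome genes, had log2 ratios of -1.86, -1.66 and -1.71. In other astroglia Caly was at 33.7 and 13.4 CPM in the Emx1-Cre and hGFAP-Cre libraries (-1.07) and Necab2 at 23.2 and 20.2 CPM (-0.16). Tmigd1, Lect1, Meox1, Htatip2 and Tfeb lay under the added 5 CPM there, too low for a ratio to be read. Anxa1, named after its value was seen, was at 9.69, 521 and 188 CPM (-1.45). For Tmigd1, Caly, Lect1, Meox1, Htatip2 and Necab2 the Emx1-Cre members were the high group and the control lay below the hGFAP-Cre value. The control and hGFAP-Cre intervals overlapped for each of these genes, so the order of those 2 groups is not resolved.

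Over all 9199 genes 577 were at least 1.5-fold higher and 391 lower in the hGFAP-Cre than in the Emx1-Cre members. With the median log2 ratio of 0.12 subtracted the split was 329 and 578, so the balance of directions depends on the scaling. The genes most raised over other cells in both mutants are given as a description of the members. They began with 1700012B09Rik (1192 and 920.1 CPM in the Emx1-Cre and hGFAP-Cre members), Lrrc23, Ccdc153 (648 and 481 CPM), Rsph1 and Crip3 (474 and 357 CPM). Meig1, Dynlrb2 (2579 and 1600.5 CPM), Ccna1, Tmem212 and Ccdc67 came next, and the rest were Morn5, Ccdc113, Efcab10, Tekt4 and Dmkn. In the control members, Ccdc153 and Tmem212 were at 66.4 and 60.9 CPM, below both mutants, while Ccdc67 at 655 CPM was above both.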

How the data were processed

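The files hold UMI counts per gene and barcode, raw and not normalised, which the authors obtained from Cell Ranger 5.0.0, per the file headers, on build mm10, per the submitters' processing notes; barcodes and gene names, deposited beside the counts, carry no measurement. Each of 3 libraries is 1 sample. Counts of members were summed per library and given as CPM with exact intervals at 95%; the contrast used a pseudocount of 5 CPM on genes at 10 CPM or more in either mutant, of 27998 in the files, and was tested on simulated data. Thinning drew 3000 UMIs per cell; shallower cells were left out. Doublets (Scrublet in scanpy 1.11.5, expected rate 10%) were kept in and removed only as an alternative. A count of 0 allows up to 3 counts. PCR duplicates are collapsed by UMIs.

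The members, the 28 gene lists and the rules were chosen with earlier results of these data known. Genes named are the 6 rule genes, up to 5 per list with the largest log2 ratio, fixed stage genes, the 8 highest and 8 lowest outside the lists at 50 CPM or more with intervals apart (not counting ribosomal, haemoglobin, mitochondrial or sex-linked genes, nor predicted genes without a name), the 15 most raised, Map2k1, Map2k2 and Prm1. Genes named outside this rule (among them Gmnc, Cep152, Fabp7 and Mt1 levels, Folr1, Enpp2, Reln, Ttr, Dusp6, Spry2, Jun, Jag1, Id2, Cdk1, Top2a, Mki67, Ccna2, Ccnd2, Mt3, Ptprz1, Rpl29, Anxa1, and the 4 genes with an X-box) were chosen after their values were seen. Scripts ran under Python 3.11.15 with pandas 2.3.3, numpy 2.4.6, scipy 1.17.1 and matplotlib 3.10.9.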

Additional observations from a re-analysis of the deposited data

How the results depend on the processing

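Members stayed more frequent in the Emx1-Cre than in the hGFAP-Cre library under all 9 alternatives to the rule, by 1.57 to 4.03 times. Shares in the Emx1-Cre and hGFAP-Cre libraries were 10.1 and 4.02% without doublets, 19.6 and 6.67% with at least 2000 genes, 10.0 and 2.60% with at least 4 partners, 9.89 and 2.45% at 3000 UMIs and 7.90 and 3.21% without members that had 3 markers of another type. The hGFAP-Cre share was 3.45% with at least 3 partners and 7.32% with at least 1. The control share was 0.301% with at least 4 partners and without members with other markers, and 0.602% with at least 1 partner. Of the alternatives, at least 1 partner and the rule without Fam183b were added after the data were seen.

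The number of genes higher in hGFAP-Cre members was 953 at 3000 UMIs, 1079 with at least 1 partner, 910 and 187 with a pseudocount of 1 and 20 CPM, 203 among genes of at least 50 CPM and 329 with the median subtracted, against 577. The number lower was 696 with at least 1 partner, 190 with a pseudocount of 20 CPM and 167 at 50 CPM, against 391. Of 342 list medians under alternatives (19 lists), 267 moved little, 69 moved and 6 changed sign: radial spoke 0.088, dynein 0.041 and doublet 0.11 in the middle load class, doublet 0.057 in the high load class, and S phase -0.079 in the low load class and -0.13 at 50 CPM. Of 2214 log2 ratios of 123 named genes, 19 changed sign. In the middle and high load classes Tctex1d4 was at 0.32 and 0.0070, Hdc at 0.16 and 0.089, Phlda1 at -0.30 and -0.70 and Cryab at -0.52 and -0.18. In the high load class Hes5 was at -0.36, Epha4 at -0.072, Notch3 at -0.066, Id3 at -1.47, Id1 at -0.21, Fas at -0.76, Klf4 at -0.22 and Mfge8 at -0.067. Krt18 was at 0.0094 in the low load class, Numbl at -0.17 at 3000 UMIs and Cryab at -0.018 with at least 4 partners. The cause was not tested. No paired analysis was possible because each genotype has 1 library, which also leaves no replicate to leave out. The control rests on 43 members, the deepest per cell, so their number and not their depth limits it.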
